A study of Homo sapiens with 30 samples.

Results

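The comparison concerns what an induced wild-type RPB1 changed in cells that had lost their own RPB1. RPB1 is the biggest subunit of RNA polymerase II and holds most of its active site, and POLR2A is its gene. The quantity examined was a difference of changes, taken gene by gene on the log2 scale: the change on treatment in the line that also carried a wild-type RPB1 (the WT line), minus the change on treatment in the line without it (the degron line). It rests on 8 of the 30 libraries of the series, in 4 groups of 2. Treated WT libraries came from cells of the genotype RPB1 degron with WT RPB1 complement, given doxycycline at 2 µg/mL for 24 h and then dTAGV-1 at 100 nM for 12 h. Untreated WT libraries came from the same line with neither agent. Treated degron libraries came from RPB1 degron cells given dTAGV-1 at 100 nM for 12 h with no doxycycline, and untreated degron libraries from that line with neither agent. All 4 groups carry the degron on endogenous RPB1. Since the treated WT cells were the only ones of these 8 libraries with doxycycline, the induced protein and doxycycline itself cannot be told apart here. The labels say neither whether a line is 1 clone nor which promoter drives the complement. They also do not say whether replicates were separate cultures, so the spread between replicates may be technical. P-values rest on that spread pooled over all 30 libraries, not on the spread of these 8 alone.

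The carboxy-terminal domain (CTD) of RPB1 is a long tail of repeated heptapeptides. Kinases phosphorylate its tyrosine, serine and threonine residues during the transcription cycle, and the marks recruit factors for capping, elongation, splicing and 3′ end formation. A dTAG degron is a mutant FKBP12 tag that a small molecule links to a ubiquitin ligase. dTAGV-1 uses the VHL ligase, and the tagged protein is then broken down by the proteasome. Doxycycline switches on genes placed under a tetracycline-responsive promoter, and it also slows translation inside mitochondria. When transcription by RNA polymerase II stops, messages with short half-lives leave the polyadenylated pool first, while long-lived messages take a larger share of it.

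The cells are labelled A549, a lung adenocarcinoma line, but levels of many marker genes conflicted with that label. Of 20 A549 and lung epithelial markers, 11 were under 1 CPM (counts scaled to a library of 1e6) in all 8 libraries, with CEACAM6 and SCGB3A2 at 0 throughout and KRT7 and KRT19 never above 0.160 and 0.0612 CPM. AKR1B10, AKR1C1, AKR1C2 and AKR1C3 of the same list were never above 0.0829, 0.377, 0.3315 and 0.0688 CPM. KRT8 held 76.7 to 123 CPM, KRT18 25.6 to 49.8 and NKX2-1 6.11 to 10.6 CPM over the 8 libraries. The sum of the 20 markers was 135 to 185 CPM in treated WT, 138 to 148 in untreated WT, 124 to 158 in treated degron and 129 to 148 CPM in untreated degron libraries. CDKN2A, CDKN2B and MTAP, a 9p21 block known to be deleted in A549, together reached 161 to 201 CPM in treated WT, 164 to 172 in untreated WT, 232 to 268 in treated degron and 167 to 200 CPM in untreated degron libraries. Kidney HEK293 or neuronal markers were abundant and moved with treatment. Their sum was 955 to 1171 CPM in treated WT and 1770 to 1864 CPM in untreated WT libraries, and it was 325 to 368 CPM in treated degron and 1744 to 1845 CPM in untreated degron libraries, with 2 of the 10 under 1 CPM throughout. IRS4, an insulin receptor substrate, made up much of it, at 839 and 666 CPM in treated WT, 1367 and 1454 in untreated WT, 174 and 148 in treated degron and 1376 and 1464 CPM in untreated degron libraries. Summed immune markers were 16.5 to 23.1 CPM in treated WT, 10.4 to 10.9 in untreated WT, 35.6 to 48.3 in treated degron and 13.2 to 16.2 CPM in untreated degron libraries. Which line the cells are was not tested. The part of any mixture of cells in the results was not tested, and in bulk RNA fewer cells of a kind and less RNA per cell cannot be told apart.

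Library totals lay between 11356689 and 17542322 counts for the 8 libraries. Replicates differed most in the treated groups: the median absolute log2 difference between replicates was 0.33 in treated WT, 0.086 in untreated WT, 0.26 in treated degron and 0.17 in untreated degron libraries. In both treated groups replicate 2 ran above replicate 1 with rising GC content of the transcript, by 0.39 on the log2 scale per 10 percentage points of GC in WT and by 0.31 in degron libraries. A GC correction was therefore run beside the main fit.

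Promoter windows are shown for genes on which the results turn and whose windows hold the letters of a well-known binding motif. Each is the 250 bases before the RefSeq gene start in GRCh38.p14, written 5′ to 3′ on the gene's strand, with the motif in capitals. HSPA6 (chr1:161524290-161524539, plus strand) and HSPA8 (chr11:123062137-123062386, minus strand) encode HSP70 chaperones that moved differently, and the capitals mark a heat shock element as HSF1 binds it, the triplets GAA, TTC and GAA with any 2 bases between neighbours, or its reverse complement.
HSPA6: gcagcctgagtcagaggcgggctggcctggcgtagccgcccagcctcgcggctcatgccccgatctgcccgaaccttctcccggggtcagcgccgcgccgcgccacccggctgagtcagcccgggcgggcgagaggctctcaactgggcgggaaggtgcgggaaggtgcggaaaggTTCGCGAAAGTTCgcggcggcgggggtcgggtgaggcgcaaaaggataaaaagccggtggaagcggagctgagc
HSPA8: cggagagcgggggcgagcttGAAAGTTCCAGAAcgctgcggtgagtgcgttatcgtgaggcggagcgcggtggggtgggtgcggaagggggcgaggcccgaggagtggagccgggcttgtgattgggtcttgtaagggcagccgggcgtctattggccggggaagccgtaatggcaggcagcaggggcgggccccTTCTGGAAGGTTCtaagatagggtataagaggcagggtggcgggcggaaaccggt
HES5 (chr1:2530264-2530513, minus strand) and HES1 (chr3:194135898-194136147, plus strand) encode Notch-driven repressors of transcription, and the capitals mark GTGGGAA or its reverse complement, the core of an RBPJ site.
HES5: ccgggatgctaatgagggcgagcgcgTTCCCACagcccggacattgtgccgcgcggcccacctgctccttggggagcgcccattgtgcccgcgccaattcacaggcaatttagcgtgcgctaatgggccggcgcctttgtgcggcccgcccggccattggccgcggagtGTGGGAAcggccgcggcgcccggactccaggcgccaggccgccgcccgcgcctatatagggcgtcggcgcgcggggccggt
HES1: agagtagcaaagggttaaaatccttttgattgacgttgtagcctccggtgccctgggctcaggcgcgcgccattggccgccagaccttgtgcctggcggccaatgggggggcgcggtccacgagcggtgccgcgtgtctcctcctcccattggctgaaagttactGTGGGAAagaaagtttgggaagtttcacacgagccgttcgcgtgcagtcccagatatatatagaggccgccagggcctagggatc
CHAC1 (chr15:40953221-40953470, plus strand) encodes a glutathione-degrading enzyme of the integrated stress response, with TGATGNAA or its reverse complement, an ATF4 and C/EBP composite site, in capitals. SMAD6 (chr15:66701986-66702235, plus strand) encodes an inhibitor of bone morphogenetic protein (BMP) signalling, with the palindrome GTCTAGAC, a SMAD site, in capitals.
CHAC1: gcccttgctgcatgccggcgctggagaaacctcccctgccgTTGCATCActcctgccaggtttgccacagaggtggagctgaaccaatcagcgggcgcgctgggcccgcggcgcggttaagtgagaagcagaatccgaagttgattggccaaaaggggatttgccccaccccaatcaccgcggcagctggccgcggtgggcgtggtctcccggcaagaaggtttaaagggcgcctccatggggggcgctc
SMAD6: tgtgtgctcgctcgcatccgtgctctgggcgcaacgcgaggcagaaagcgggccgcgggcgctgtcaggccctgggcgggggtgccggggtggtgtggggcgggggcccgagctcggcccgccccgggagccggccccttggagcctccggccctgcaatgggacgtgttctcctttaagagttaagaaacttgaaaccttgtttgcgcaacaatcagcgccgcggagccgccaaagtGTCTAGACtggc
A gene was counted where any of its windows of that length held the motif, with both strands searched. The heat shock element occurred in 0.557% of 27305 genes, the ATF4 and C/EBP composite site in 3.89%, the RBPJ core in 6.69% and the SMAD palindrome in 0.231%. Among list members with a window, they were found in 8 of 22 heat shock and chaperone genes, 7 of 30 ATF4 targets, 6 of 19 Notch pathway genes and 1 of 19 BMP and SMAD genes. A match describes letters only.

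POLR2A (chr17:7484366-7514616, plus strand) gives both the endogenous message and, in the WT line, possibly the induced one, so its counts cannot show the protein's loss. It stood at 518 and 1020 CPM in treated WT, 302 and 290 CPM in untreated WT, 411 and 689 CPM in treated degron and 461 and 288 CPM in untreated degron libraries. The treated replicates of each line lay far apart, and the treated and untreated degron libraries overlapped. It rose in the WT line by 1.38, a call that ended with the 8 libraries alone. The difference of changes was 0.82 ± 0.37 (standard error, SE; 2 libraries a group). Its adjusted p was 0.16 by the quasi-likelihood test of edgeR, with p-values adjusted after Benjamini and Hochberg, and the difference ran over 0.26 to 1.244 when 1 of the 8 libraries was left out. The 11 other subunits of RNA polymerase II that were tested had no call for the difference, with a median of -0.29, which is 0.36 with the scaling factors of the authors' own tables. With a correction for GC content 6 of them were called lower, with a median of -0.35, beside 3078 lower of all 19982 genes tested in that fit.

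The treatment moved far fewer genes in the WT line than in the degron line. In the main fit the genes that differed were mostly those that had fallen with RPB1 loss. With the GC correction higher genes were not the majority, at 2937 higher and 3078 lower. A gene was called where its adjusted p in that edgeR test was under 0.05. Of 19982 genes tested, 985 (4.93%) were called for treated against untreated in the WT line, 618 of them higher after treatment (3.09%) and 367 lower (1.84%), and 8881 (44.4%) were called in the degron line. The difference of changes was called for 2403 genes (12%), of which 1646 (8.24%) were higher in the WT line and 757 (3.79%) lower, with 834 and 333 of them at least 2-fold. Its median over all tested genes was 0.01.

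These counts depend on the fit. A GC correction called 6015 genes, of which 2937 were higher and 3078 lower, and 2376 of the 2403 calls were among them in the same direction. Some lists that are given below with 0 lower genes had lower ones in that fit. Immediate early and other short-lived mRNAs then had 18 higher and 3 lower of 43, and Notch pathway genes 8 and 2 of 24. snoRNA host genes had 12 and 2 of 22, and SR and hnRNP splicing factors 10 and 2 of 27. BMP and SMAD genes had 17 and 0 of 23. A fit of the 8 libraries alone called 573 genes, all among the 2403, of which 489 were higher and 84 lower. Matching libraries on their mitochondrial mRNAs gave 2653 higher and 219 lower, and the authors' factors gave 5795 higher and 127 lower, with the median of all genes at 0.28 and 0.64. For treated against untreated, the WT line had 406 higher and 1894 lower with mitochondrial matching, 1541 and 2338 with the GC correction, and 264 and 324 with the authors' factors. The degron line had 1942 higher and 8499 lower with mitochondrial matching, and 1363 and 12040 with the authors' factors. Each list median given below as negative was above 0 with the authors' factors. Without replicate 1 of the untreated degron group 1504 genes were called, without replicate 1 of untreated WT 1452 and without replicate 2 of untreated WT 1445. In the WT line 128 genes were called with the 8 libraries alone. Among the WT changes given below as called, those of MYC, KLF11, ID2, HSPA8, CHAC1, NUPR1, HMOX1, PHLDA3, TIGAR, IFI27, SRSF3, WSCD1 and ALDH1A2 were not called in that fit, and those of HSPA6, SLC7A11, SMAD6, HEY1, HEXIM1, SNHG3, LRATD2 and NAV2 were.

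**Figure D1:**
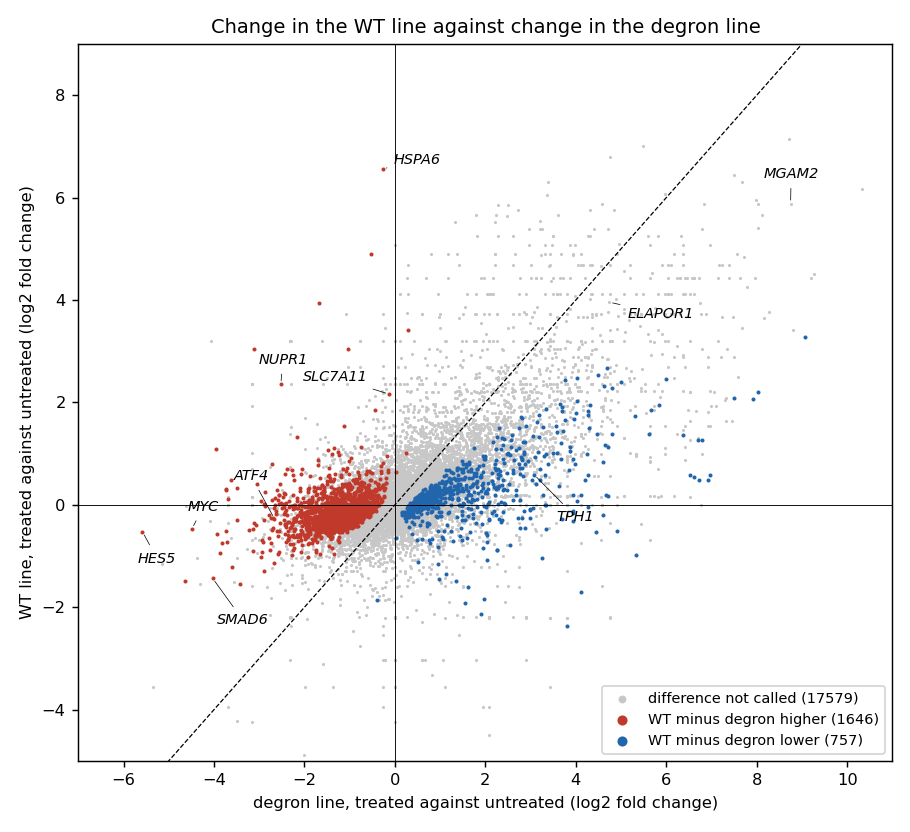
Log2 fold change of treated against untreated libraries in the WT line (vertical axis) against that in the degron line (horizontal axis), 1 point a gene tested. Red points are the 1646 genes called higher for the difference of changes, blue points the 757 called lower, and the dashed line marks equal changes; HSPA6 stands at 6.56 in WT and -0.27 in degron cells.

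Most called genes were also called in the degron line and not called in the WT line, and a missing call is not a missing change. Of the 1646 higher genes, 1442 (87.6%) fell in the degron line and were not called in the WT line, and 166 (10.1%) fell in both. Another 10 rose in the WT line and fell in the degron line, and 11 rose in the WT line with no call in the degron line. Of the 757 lower genes, 631 (83.4%) rose in the degron line and were not called in the WT line, 106 (14%) rose in both, and 3 fell in the WT line and rose in the degron line. The degron change is part of the difference, so these counts describe it and are no separate test. Treated WT against treated degron libraries had 6765 calls (33.9%), of which 3427 were higher in WT (17.2%) and 3338 lower (16.7%). That split was 7222 higher and 996 lower with mitochondrial matching, and 10704 and 506 with the authors' factors, which have no common scale between lines. In the fit as first given, 1282 of the 1646 higher genes (77.9%) were higher there with no call between the untreated groups.

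For a smaller set the lines differed before treatment and had no call after it. Untreated WT and untreated degron libraries differed in 2038 genes (10.2%), with 765 higher in WT (3.83%) and 1273 lower (6.37%), or in 272 genes with the 8 libraries alone. The split was 1645 higher and 521 lower with mitochondrial matching, and 2854 and 2464 with the GC correction. Among the 1646 higher genes, 124 (7.53%) were called only between the untreated groups, where WT was lower, and among the 757 lower genes 91 (12%) were called only there, where WT was higher. TXNIP, an arrestin-domain inhibitor of thioredoxin and glucose uptake chosen after its values were seen, had 28.8 and 29.2 CPM in treated WT, 32.4 and 32.8 CPM in untreated WT, 33.5 and 25.8 CPM in treated degron and 55.2 and 60.2 CPM in untreated degron libraries. Its treated groups overlapped and its untreated groups did not. The difference of changes was 0.79 ± 0.17 (edgeR adjusted p = 0.0038), a call that ended with the 8 libraries alone. LGR5, a Wnt-amplifying R-spondin receptor, was the reverse case at 12.0 and 10.0 CPM in treated WT, 9.68 and 12.1 CPM in untreated WT, 14.1 and 12.9 CPM in treated degron and 5.11 and 4.25 CPM in untreated degron libraries (difference -1.51 ± 0.22, edgeR adjusted p = 9.3e-05).

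Genes called in the degron line mostly kept the sign of that change in the WT line, with smaller median changes. The WT change shares no library with the degron change, so it can be read at genes chosen on the degron change. The changes need not be independent, though. Same-numbered libraries deviated together between the treated groups (correlation 0.88) and between the untreated groups (0.388), and what they share was not tested. The 4272 genes that fell in the degron line (21.4%) had a median change of -0.20 in the WT line and -0.84 in the degron line. In WT 81.9% of them kept the sign, 333 (7.80%) fell and 10 rose. The 4609 that rose in the degron line (23.1%) had a median of 0.38 in WT and 1.11 in the degron line. In WT 87.2% of them kept the sign, 550 (11.9%) rose and 3 fell. Per gene, the median share of the degron change seen in WT was 23.4% for fallen and 37.5% for risen genes, and the degron side of that share is larger for having been chosen on. With the authors' factors the same fallen genes had medians of -0.43 in WT and -1.69 in the degron line, and the risen ones 0.15 in WT and 0.24 in the degron line. With mitochondrial matching the fallen genes had medians of -0.41 in WT and -1.32 in the degron line, and the risen ones 0.17 in WT and 0.63 in the degron line. How the shares of fallen and risen genes compare thus depends on the scaling.

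WT changes grew with the size of the degron change more in the risen set than in the fallen set. Where the degron line fell by less than 1 log2 unit (2630 genes) the medians were -0.16 in WT and -0.62 in the degron line. Among 1394 genes that fell by 1 to 2 units they were -0.28 in WT and -1.31 in the degron line, among 209 that fell by 2 to 3 units -0.33 and -2.28, and among 39 that fell by 3 or more -0.65 and -3.63. Among the risen genes, in the same bins, WT had 0.15 and the degron line 0.55 (2156 genes), WT 0.61 and degron 1.45 (1077 genes), WT 1.13 and degron 2.44 (628 genes), and WT 2.04 and degron 4.05 (748 genes). These values hold for the main fit. The 2156 risen genes of the smallest bin had medians of -0.087 in WT and -0.30 in the degron line with the authors' factors. Mitochondrial matching gave them -0.069 in WT and 0.070 in the degron line, so whether they rose depends on the scaling. Risen genes were the less abundant ones, with a median before treatment of 2.51 CPM, against 24.9 CPM for fallen genes.

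**Figure D2:**
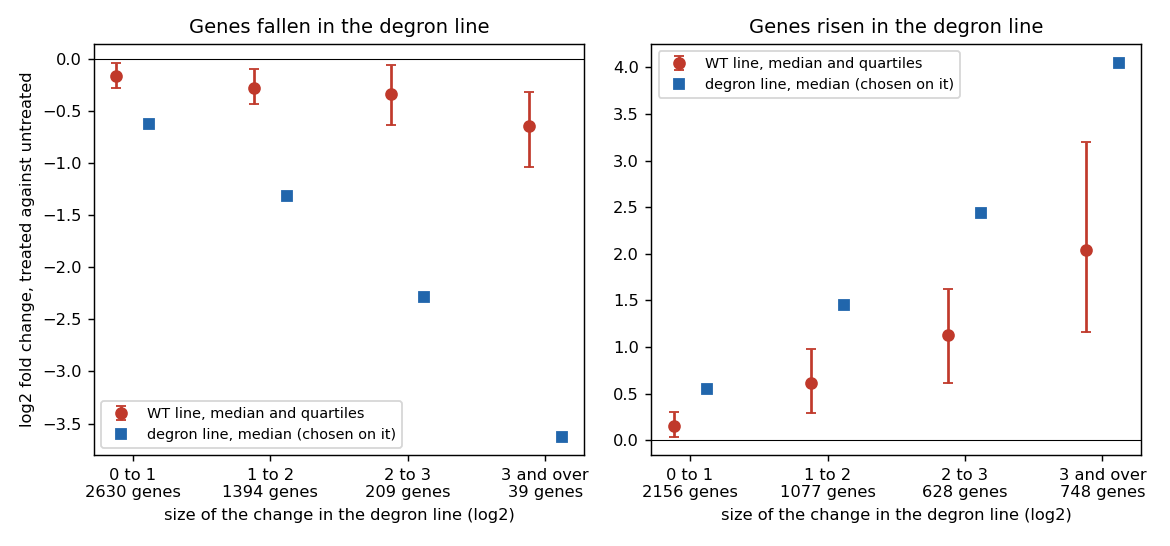
Median log2 fold change of treated against untreated libraries in the WT line (red circles, bars from the lower to the upper quartile over genes) and in the degron line (blue squares), for genes fallen (left) and risen (right) in the degron line, in bins of the size of the degron change. WT medians lie between -0.16 and -0.65 for fallen genes and between 0.15 and 2.04 for risen genes in the main fit shown. For the smallest risen bin the WT median is below 0 with the authors' factors and with mitochondrial matching.

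Genes called higher were mostly protein-coding and well expressed. Of the annotated higher genes 91.2% were protein-coding, against 79.2% of the lower genes and 78.1% of all tested genes. Their median level before treatment was 26.0 CPM, against 12.7 CPM for the lower and 10.6 CPM for all tested genes, and calls are easier at higher counts. The contrast with the lower genes depends on the fit. With the GC correction 92.4% of higher and 88.8% of lower annotated genes were protein-coding. Their median levels before treatment were then 29.85 CPM for higher and 44.2 CPM for lower genes. Symbols ending as antisense (-AS) or divergent (-DT) transcripts made up 2.61% of higher, 6.08% of lower and 5.38% of all tested genes. With the GC correction they made up 2.35% of higher and 3.25% of lower genes. Median transcript GC content was 50.2% for higher, 46.4% for lower and 48.9% for all tested genes, and with the GC correction it was 48.6% for both called sets.

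MYC, the growth-promoting transcription factor, had 166 and 205 CPM in treated WT, 259 and 255 CPM in untreated WT, 20.8 and 25.4 CPM in treated degron and 541 and 497 CPM in untreated degron libraries. The 4 groups did not overlap, and the untreated lines already differed by -1.02 on the log2 scale. The difference of changes was 4.02 ± 0.19 (SE, edgeR adjusted p = 1e-11), made of a WT change of -0.47 and a degron change of -4.49. After treatment the WT level exceeded the degron level by 3.00 on the log2 scale.

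**Figure D3:**
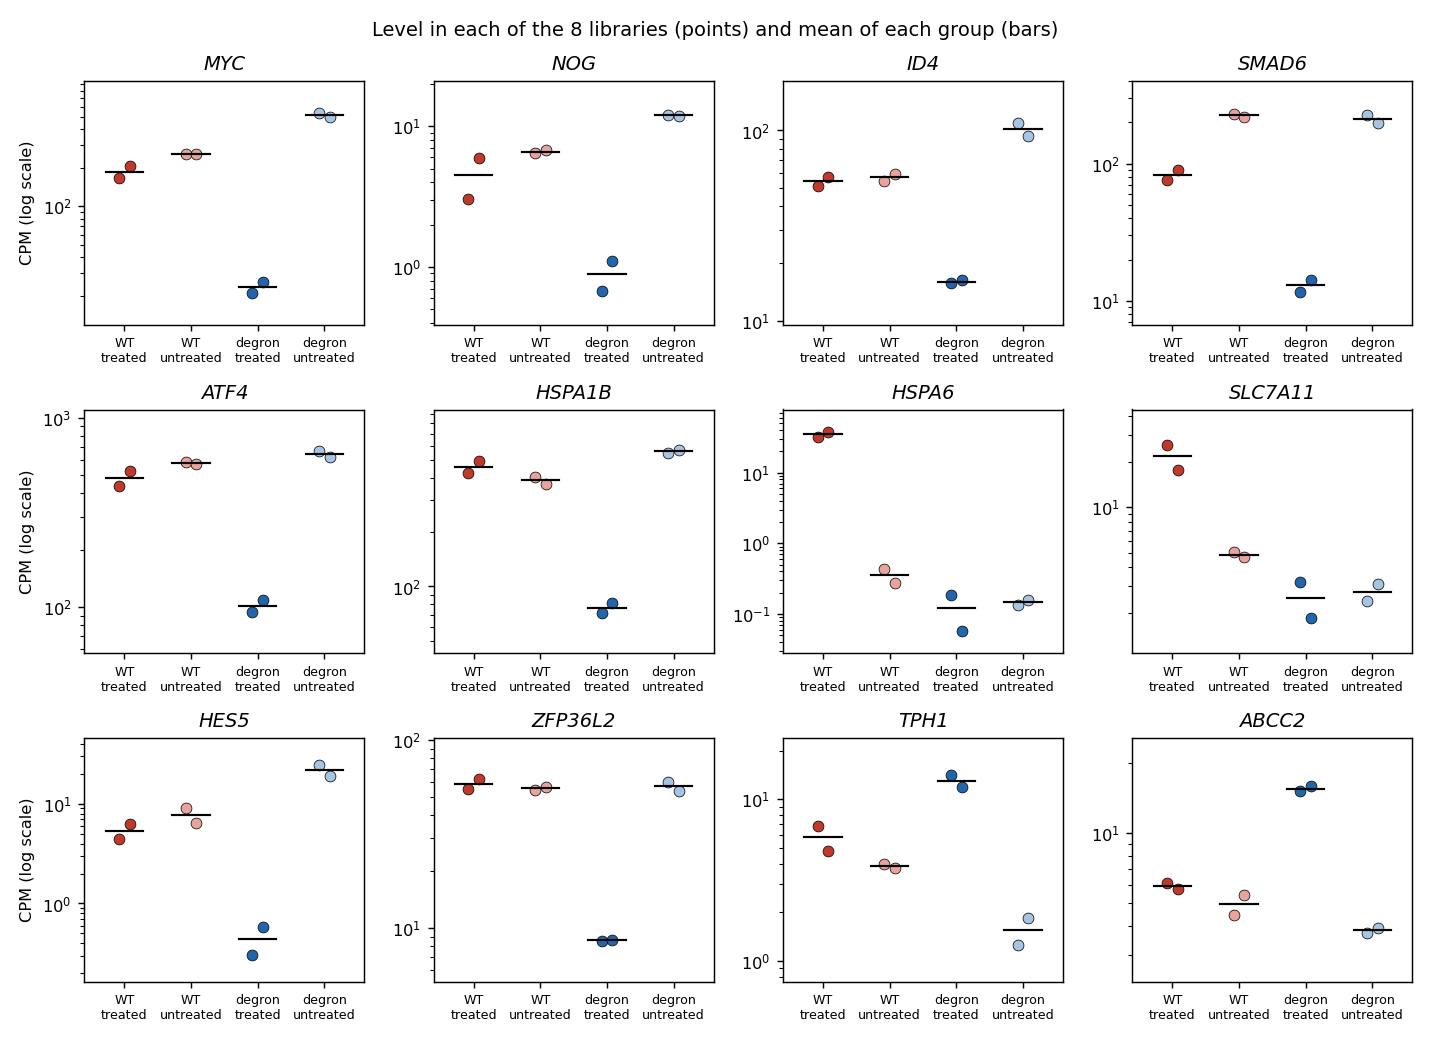
Level in CPM (log scale) of 12 genes in each of the 8 libraries (points) with the group mean (bar), from left to right treated WT, untreated WT, treated degron and untreated degron. In 8 panels both treated degron libraries lie below the other 6 (MYC, NOG, ID4, SMAD6, ATF4, HSPA1B, HES5 and ZFP36L2), HSPA6 and SLC7A11 are highest in treated WT, and TPH1 and ABCC2 are highest in treated degron libraries.

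Other genes of the MYC network moved less. Of 16 tested, 4 were higher and 1 lower, with a median of 0.43. The counts of this list and of those below stand beside 8.24% of all tested genes called higher for the difference and 3.79% called lower. For treated against untreated the shares of all tested genes were 3.09% higher and 1.84% lower in the WT line. In the degron line they were 23.1% and 21.4%. TFAP4, a MYC-induced repressor, was higher by 1.82 ± 0.25 and MGA, which competes for MAX, by 1.21 ± 0.18. MXD1, a MAX partner that opposes MYC, was lower at -1.18 ± 0.21, a call that ended with the 8 libraries alone (edgeR adjusted p = 0.053) and with the authors' factors.

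Immediate early and other short-lived mRNAs had 13 of 43 tested genes higher and 0 lower, with a median difference of 0.71. With the 8 libraries alone 6 were higher. In the WT line 3 of the 43 rose and 1 fell, and in the degron line 7 rose and 20 fell. Between the untreated groups 8 of the 43 were lower in WT and 4 higher. ZFP36L2, a protein that binds AU-rich elements and speeds mRNA decay, held 55.2 and 62.1 CPM in treated WT, 54.1 and 56.5 CPM in untreated WT, 8.57 and 8.61 CPM in treated degron and 60.1 and 53.4 CPM in untreated degron libraries. The treated degron libraries stood apart from the other 6 (difference 2.81 ± 0.24, edgeR adjusted p = 1.1e-07). DUSP1, a phosphatase that turns off MAP kinases, was higher by 1.41 ± 0.26, SPRY2, a feedback inhibitor of receptor tyrosine kinases, by 1.36 ± 0.17, and GADD45B, a stress-induced signalling protein, by 1.77 ± 0.30. FOS, EGR1, ATF3, IER3 and CCND1, classic members of the same early response or of growth factor signalling, were not called.

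KLF transcription factors had 5 of 14 tested genes higher and 0 lower, with a median of 0.68 and 1 call with the 8 libraries alone. KLF11, a TGF-β-induced repressor, was higher by 1.34 ± 0.15 (edgeR adjusted p = 4.8e-06), with a change of -0.55 in the WT line and -1.89 in the degron line.

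BMP and SMAD targets and inhibitors had the highest median of the 33 lists, 1.77. Of 23 tested genes 14 were higher and 0 lower, or 12 higher with the 8 libraries alone, and 6 fell in the WT line and 18 in the degron line. The lines already differed before treatment. Untreated WT was lower than untreated degron for 8 of the 23 and higher for 3, beside 6.37% and 3.83% of all tested genes. BMP ligands act through SMAD proteins that switch on the ID genes together with the inhibitors SMAD6, SMAD7 and NOG. NOG, a secreted BMP antagonist, had 3.07 and 5.99 CPM in treated WT, 6.41 and 6.73 CPM in untreated WT, 0.674 and 1.10 CPM in treated degron and 12.1 and 11.9 CPM in untreated degron libraries (difference 3.22 ± 0.36, edgeR adjusted p = 3.9e-06). It was lower in untreated WT than in untreated degron libraries, with no overlap.

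The ID genes encode dominant-negative helix-loop-helix proteins, and ID1, ID2, ID3 and ID4 were all called higher. ID4 had 51.0 and 57.2 CPM in treated WT, 54.6 and 58.9 CPM in untreated WT, 15.7 and 16.3 CPM in treated degron and 110 and 93.3 CPM in untreated degron libraries. The WT groups overlapped and the degron groups did not (difference 2.60 ± 0.15, edgeR adjusted p = 1.9e-10). Untreated WT libraries lay below the untreated degron libraries. ID3 was higher by 2.59 ± 0.24, ID1 by 1.86 ± 0.29 and ID2 by 1.77 ± 0.11, and of these ID2 was called in the WT line, where it fell by 0.33.

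Among the intracellular inhibitors SMAD6 fell in both lines, and less in WT. It had 76.2 and 90.2 CPM in treated WT, 230 and 220 CPM in untreated WT, 11.6 and 14.3 CPM in treated degron and 228 and 197 CPM in untreated degron libraries. Untreated levels overlapped between lines, and treated WT levels lay between the untreated and treated degron levels. The difference was 2.60 ± 0.23 (edgeR adjusted p = 2.1e-07), made of a WT change of -1.44 and a degron change of -4.03. SMAD7 was higher by 1.91 ± 0.21 with a WT change of -0.33 that was not called. BAMBI, a decoy receptor, was higher by 1.12 ± 0.19.

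Notch pathway genes had 7 of 24 tested genes higher and 0 lower, with a median of 0.69 and 5 calls with the 8 libraries alone. Untreated WT was already lower than untreated degron for 7 of the 24 and higher for 0. On activation the NOTCH intracellular domain joins RBPJ at its target genes, among them the HES and HEY repressors. HES5 was at 4.39 and 6.26 CPM in treated WT, 8.99 and 6.46 CPM in untreated WT, 0.306 and 0.578 CPM in treated degron and 24.6 and 18.9 CPM in untreated degron libraries (difference 5.05 ± 0.50, edgeR adjusted p = 1.2e-06). All 4 WT libraries lay between the treated and the untreated degron libraries. HES1 had 28.01 and 31.8 CPM in treated WT, 26.6 and 28.8 CPM in untreated WT, 7.90 and 9.48 CPM in treated degron and 27.9 and 25.3 CPM in untreated degron libraries, so that the treated degron libraries alone stood apart (1.73 ± 0.19). HEY1, a target of both Notch and BMP signals that both lists hold, was higher by 1.98 ± 0.12 although it fell by 0.75 in WT, and NRARP, a Notch feedback inhibitor, was higher by 1.23 ± 0.18. The RBPJ core lay in 3 of the 5 called Notch genes that have a window, beside 6 of all 19 Notch genes with a window. The other motifs lay in 3 of 13 called ATF4 targets (7 of all 30) and 2 of 5 heat shock genes called higher (8 of all 22). The SMAD palindrome lay in 1 of 11 called BMP and SMAD genes (1 of all 19). Whether motif and call go together was not tested.

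Wnt feedback and target genes were mixed, with 6 higher and 2 lower of 24 tested, a median of 0.55, and 0 higher and 1 lower with the 8 libraries alone. The lower one in that fit was LGR5, given above. FZD7, a Wnt receptor, was higher by 0.82 ± 0.16 (edgeR adjusted p = 0.0018, and 0.051 with the 8 libraries alone). Between the untreated groups 5 of the 24 Wnt genes were lower in WT and 1 higher.

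Heat shock and chaperone genes went several ways. Of 25 tested, 5 were higher and 2 lower, with a median of -0.07. HSPA6, a strictly inducible HSP70 (chr1:161524540-161526910, plus strand), had 32.3 and 37.7 CPM in treated WT, 0.440 and 0.278 CPM in untreated WT, 0.184 and 0.0578 CPM in treated degron and 0.133 and 0.160 CPM in untreated degron libraries. Both treated WT libraries stood far above the 6 others. The values rest on 938 counts in treated WT, 11 in untreated WT, 4 in treated degron and 4 in untreated degron libraries, so the fitted difference of 6.83 ± 1.40 (edgeR adjusted p = 0.0024) rests on few counts outside treated WT. The WT change was 6.56 ± 0.32.

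HSPA1B, another inducible HSP70, was high in every group but treated degron. It had 422 and 493 CPM in treated WT, 404 and 370 CPM in untreated WT, 71.2 and 80.6 CPM in treated degron and 546 and 571 CPM in untreated degron libraries (difference 3.12 ± 0.14, edgeR adjusted p = 4.5e-12). Its near-identical neighbour HSPA1A shares reads with it and is uncertain (3.52 ± 0.65). HSPA6 is also close to both in sequence.

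HSPA8, the constitutive HSP70, had 1486 and 1497 CPM in treated WT, 1846 and 1840 CPM in untreated WT, 497 and 502 CPM in treated degron and 1206 and 1272 CPM in untreated degron libraries. The 4 groups did not overlap, and treated degron libraries were far below the others. It fell by 0.31 in WT and by 1.31 in the degron line (difference 1.00 ± 0.09, edgeR adjusted p = 1.6e-07). Its window, shown above, holds 2 matches to the heat shock element and that of HSPA6 holds 1. DNAJB1, an HSP40 that HSF1 induces, was higher by 1.00 ± 0.15. DNAJA4, another HSP40, was lower, with 3.40 and 3.99 CPM in treated WT, 2.01 and 2.57 CPM in untreated WT, 6.55 and 8.32 CPM in treated degron and 0.863 and 0.721 CPM in untreated degron libraries (-2.51 ± 0.33, edgeR adjusted p = 3.2e-05). Differences of -0.23 for HSPH1, -0.29 for HSP90AA1, -0.09 for BAG3 and 0.39 for HSPB1, all HSF1-responsive chaperones or co-chaperones, were not called.

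**Figure D4:**
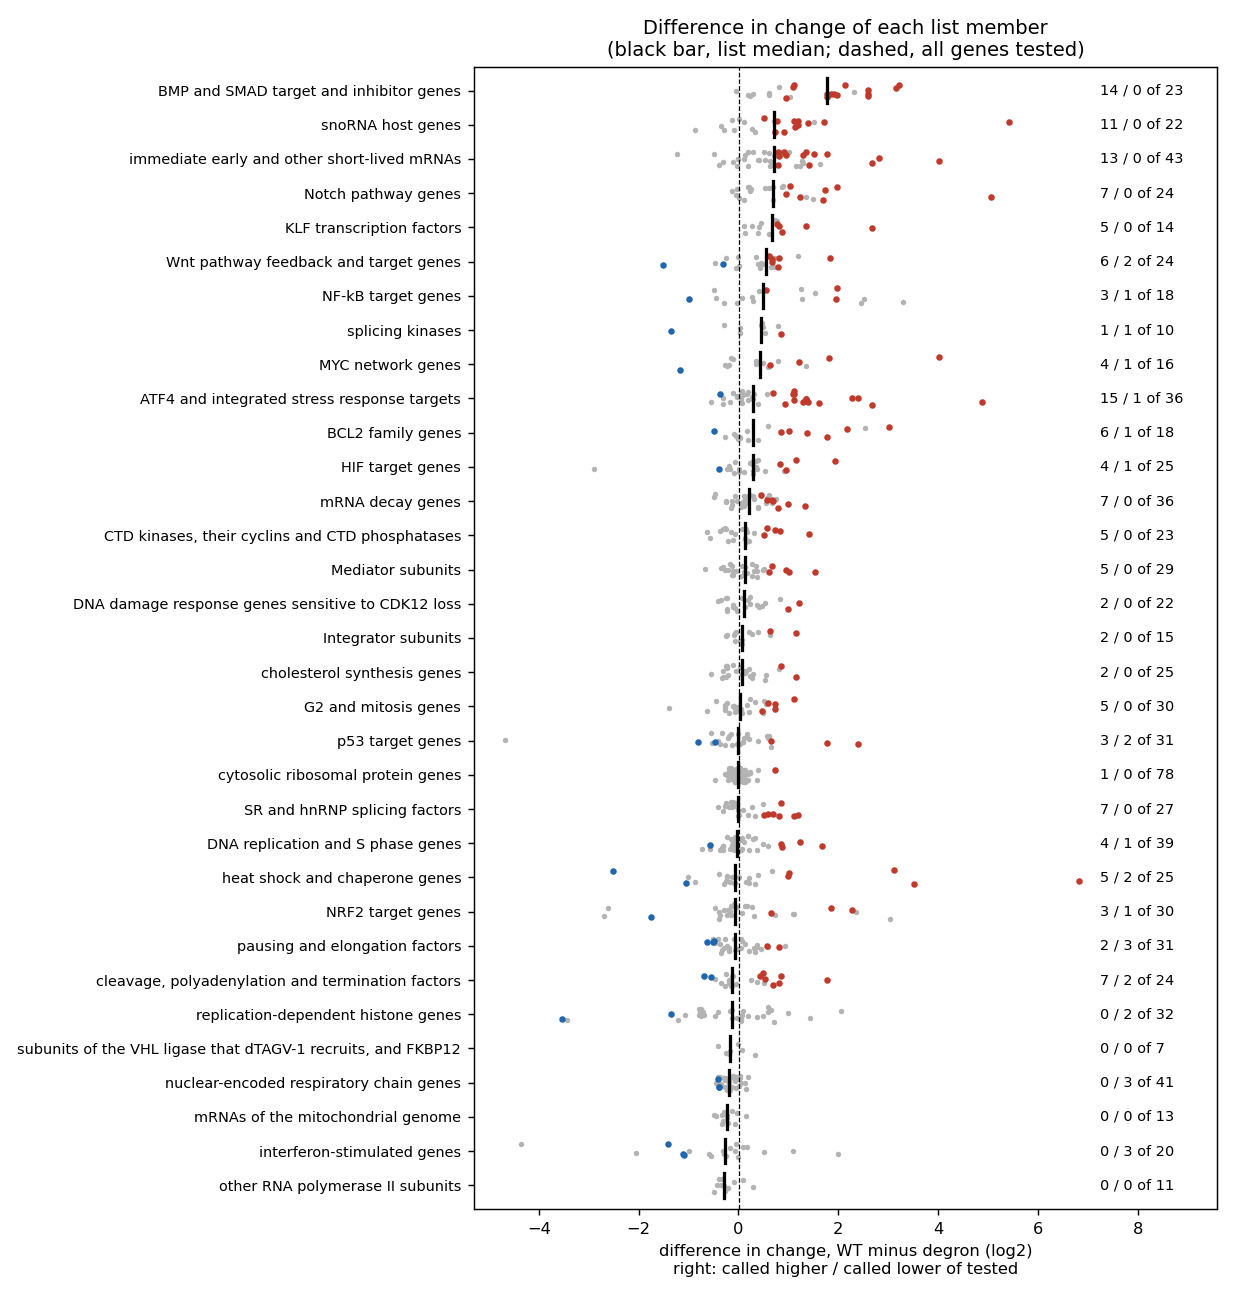
Difference of changes (log2, WT minus degron) of every tested member of each gene list, with members called higher in red, called lower in blue and not called in grey; black bars are list medians, the dashed line is the median of all tested genes, and the counts at right are called higher, called lower and tested. BMP and SMAD genes have the highest median, 1.77, and 14 of 23 called higher.

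Targets of ATF4, the transcription factor at the centre of the integrated stress response, had 15 of 36 tested genes higher and 1 lower, with a median of 0.30 and 9 higher with the 8 libraries alone. In the WT line 6 of the 36 rose and 0 fell, and in the degron line 3 rose and 14 fell. ATF4 itself had 436 and 522 CPM in treated WT, 586 and 573 CPM in untreated WT, 94.2 and 109 CPM in treated degron and 668 and 621 CPM in untreated degron libraries. Its difference of changes was 2.39 ± 0.14 (edgeR adjusted p = 3.1e-10), and its WT change of -0.27 was not called.

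SLC7A11, the cystine transporter that ATF4 and NRF2 both drive, had 25.9 and 17.7 CPM in treated WT, 5.03 and 4.65 CPM in untreated WT, 3.18 and 1.85 CPM in treated degron and 2.39 and 3.12 CPM in untreated degron libraries. Both treated WT libraries lay above the 6 others, and the degron groups overlapped (difference 2.29 ± 0.41, edgeR adjusted p = 0.00075). CHAC1 had 3.65 and 5.50 CPM in treated WT, 1.57 and 1.60 CPM in untreated WT, 1.04 and 1.68 CPM in treated degron and 3.32 and 2.64 CPM in untreated degron libraries (2.67 ± 0.47, edgeR adjusted p = 0.00061). Both treated WT libraries lay above the other 6. It rose in WT by 1.54 and fell by 1.13 in the degron line. NUPR1, a stress-induced chromatin protein, was scarce, with 37 counts over treated WT, 8 over untreated WT, 4 over treated degron and 20 over untreated degron libraries (4.88 ± 0.76).

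Further members had WT changes near 0. DDIT4, an inhibitor of mTORC1, was higher by 1.62 ± 0.30 and SLC7A1, a cationic amino acid transporter, by 1.10 ± 0.11, with WT changes of 0.25 and -0.17 that were not called. TRIB3, a pseudokinase that restrains ATF4, was higher by 1.35 ± 0.30, a call that ended with the 8 libraries alone. ASNS and PSAT1, enzymes of asparagine and serine synthesis, were not called.

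Among targets of NRF2, which answers oxidative stress, 3 of 30 were higher and 1 lower, near the 8.24% and 3.79% of all tested genes. HMOX1, the haem-degrading oxygenase, had 70.8 and 99.6 CPM in treated WT, 54.1 and 50.5 CPM in untreated WT, 18.4 and 22.2 CPM in treated degron and 48.98 and 41.0 CPM in untreated degron libraries. Treated WT libraries lay above the other 6 and treated degron libraries below them. It rose in WT by 0.71 and fell by 1.15 in the degron line (difference 1.85 ± 0.23, edgeR adjusted p = 1.2e-05). ABCC2, a transporter that exports conjugated compounds, was lower, with 6.13 and 5.78 CPM in treated WT, 4.46 and 5.42 CPM in untreated WT, 15.1 and 15.8 CPM in treated degron and 3.72 and 3.93 CPM in untreated degron libraries (-1.75 ± 0.21, edgeR adjusted p = 8.1e-06). The treated degron libraries stood above the other 6.

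Genes of the BCL2 family, which set the threshold for apoptosis, had 6 higher and 1 lower of 18 tested, with a median of 0.29. The higher ones held both promoters and inhibitors of cell death. HRK, a BH3-only activator of death, had 9.11 and 7.57 CPM in treated WT, 6.41 and 7.50 CPM in untreated WT, 1.65 and 1.97 CPM in treated degron and 7.63 and 6.09 CPM in untreated degron libraries (2.18 ± 0.27, edgeR adjusted p = 1.7e-05), with the treated degron libraries below the other 6. BBC3, which encodes the BH3-only protein PUMA, was higher by 1.77 ± 0.37 and BOK, a pore-forming member, by 3.02 ± 0.59. BCL2L2, which protects cells, was higher by 1.38 ± 0.18, and the protective BCL2L1 by 1.01 ± 0.25, a call that ended with the 8 libraries alone.

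Targets of p53 had 3 higher and 2 lower of 31 tested, beside 8.24% and 3.79% of all tested genes. PHLDA3, an inhibitor of AKT, had 5.14 and 7.91 CPM in treated WT, 3.52 and 3.05 CPM in untreated WT, 2.20 and 2.08 CPM in treated degron and 6.31 and 4.97 CPM in untreated degron libraries (2.40 ± 0.38, edgeR adjusted p = 0.00019), and its treated degron libraries were the lowest. TIGAR, which lowers glycolytic flux, rose in both lines and was lower for the difference (-0.81 ± 0.25, edgeR adjusted p = 0.035), a call that ended with the 8 libraries alone (edgeR adjusted p = 0.12) and in 6 of the 8 fits without 1 library.

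Of 25 HIF targets, genes of the response to low oxygen, 4 were higher and 1 lower, or 1 higher with the 8 libraries alone. BHLHE40, a clock-linked repressor, had 15.7 and 19.95 CPM in treated WT, 20.8 and 22.1 CPM in untreated WT, 8.94 and 10.3 CPM in treated degron and 43.6 and 44.3 CPM in untreated degron libraries (1.93 ± 0.22, edgeR adjusted p = 6.9e-06). Its level before treatment was lower in WT. Between the untreated groups 6 of the 25 HIF targets were lower in WT and 0 higher.

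NF-κB targets had 3 higher and 1 lower of 18 tested, and no call with the 8 libraries alone. Interferon-stimulated genes had 0 higher and 3 lower of 20, with a median of -0.27 that is 0.30 with the authors' factors. IFI27, an interferon-induced mitochondrial protein, had 12.8 and 13.4 CPM in treated WT, 7.04 and 7.08 CPM in untreated WT, 32.0 and 33.6 CPM in treated degron and 7.37 and 9.29 CPM in untreated degron libraries. It rose in both lines and less in WT (-1.09 ± 0.21, edgeR adjusted p = 0.0013), a call that ended with the authors' factors.

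CTD kinases, their cyclins and CTD phosphatases had 5 of 23 tested genes higher and 0 lower, with a median of 0.14 and 2 calls with the 8 libraries alone. With the GC correction 5 were higher and 5 lower, beside 2937 and 3078 of all 19982 genes tested. CDK12, a kinase of CTD serine residues in elongation, had 133 and 124 CPM in treated WT, 155 and 154 CPM in untreated WT, 55.5 and 59.0 CPM in treated degron and 113 and 118 CPM in untreated degron libraries (0.74 ± 0.11, edgeR adjusted p = 9.3e-05, and 0.057 with the 8 libraries alone). The small CTD phosphatase genes CTDSP1 and CTDSP2 were higher by 1.42 ± 0.26 and 0.83 ± 0.14. CDK9, the kinase of P-TEFb, was at 0.57 ± 0.18 with an edgeR adjusted p of 0.048, and this call ended in 6 of the 8 fits without 1 library.

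Pausing and elongation factors had 2 higher and 3 lower of 31, beside 8.24% and 3.79% of all tested genes, and no call with the 8 libraries alone. The GC correction gave 3 higher and 12 lower, beside 2937 and 3078 of all 19982 genes tested. HEXIM1, the 7SK-bound inhibitor of P-TEFb, had 113 and 139 CPM in treated WT, 58.9 and 58.2 CPM in untreated WT, 135 and 158 CPM in treated degron and 46.5 and 40.9 CPM in untreated degron libraries. It rose by 1.10 in WT and by 1.74 in the degron line. The difference of -0.64 ± 0.15 (edgeR adjusted p = 0.0083) was 0.014 with the authors' factors and was not called with the 8 libraries alone or without replicate 2 of untreated degron cells.

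Factors of cleavage, polyadenylation and termination had 7 of 24 higher and 2 lower, with a median of -0.12. The GC correction gave 9 higher and 7 lower. With the 8 libraries alone 2 were higher and 0 lower, and without replicate 1 of untreated WT cells 3 were higher and 0 lower. SCAF8, a CTD-binding protein that prevents premature polyadenylation, was higher by 1.77 ± 0.18 (edgeR adjusted p = 1.2e-06), having fallen by 1.93 in the degron line. CPSF7, a subunit of cleavage factor I, was higher by 0.81 ± 0.13. Of 15 Integrator subunits, which end transcription at small nuclear RNA and other genes, 2 were higher and 0 lower, or 1 higher with the 8 libraries alone, with INTS7 at 1.16 ± 0.18. Of 29 Mediator subunits 5 were higher and 0 lower, or 2 higher with the 8 libraries alone, with MED11 at 1.53 ± 0.20 and MED8 at 1.01 ± 0.14. With the GC correction 4 Integrator subunits were higher and 4 lower, and 8 Mediator subunits were higher and 4 lower.

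SR and hnRNP splicing factors had 7 of 27 higher and 0 lower, with a median of -0.01. SRSF3 had 563 and 504 CPM in treated WT, 687 and 696 CPM in untreated WT, 192 and 196 CPM in treated degron and 547 and 604 CPM in untreated degron libraries (1.196 ± 0.14, edgeR adjusted p = 4.8e-06). It fell by 0.37 in WT. CLK1, a kinase of SR proteins, was lower, with 76.4 and 59.9 CPM in treated WT, 48.6 and 52.6 CPM in untreated WT, 97.4 and 87.2 CPM in treated degron and 26.9 and 26.4 CPM in untreated degron libraries (-1.36 ± 0.23, edgeR adjusted p = 0.00035), a call that ended with the authors' factors.

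mRNA decay genes had 7 of 36 higher and 0 lower, with a median of 0.21 and 2 calls with the 8 libraries alone. CNOT2 and CNOT9, subunits of the CCR4-NOT deadenylase, were higher by 1.00 ± 0.18 and 0.78 ± 0.11. snoRNA host genes, whose spliced products often decay quickly, had 11 of 22 higher and 0 lower, with a median of 0.72. With the 8 libraries alone 4 were called, and 7 without replicate 1 of treated degron cells or without replicate 1 of untreated WT cells. SNHG15 was higher by 1.71 ± 0.19 and SNHG3 by 1.14 ± 0.17, and SNHG3 fell in WT by 0.93. Such hosts overlap other transcripts, and how strand was handled in counting is not given in the sources used here.

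Other groups had few or no calls for the difference. Of 32 replication-dependent histone genes tested, 14 rose in the WT line with a median of 1.21 and 22 in the degron line with a median of 1.70, while for the difference 0 were higher and 2 lower. H2BC5 had 6.63 and 7.57 CPM in treated WT, 2.26 and 2.64 CPM in untreated WT, 11.3 and 11.6 CPM in treated degron and 1.59 and 1.44 CPM in untreated degron libraries (-1.36 ± 0.25, edgeR adjusted p = 0.00087), a call that ended with the authors' factors. Histone messages mostly lack a poly(A) tail, the libraries were made from polyadenylated RNA, and near-identical copies share reads, so these values are uncertain.

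Of the 13 mRNAs of the mitochondrial genome 1 rose in the WT line and 12 in the degron line. The difference was called for 0 of them, with a median of -0.23 that is 0.04 when libraries are matched on these mRNAs and 0.37 with the authors' factors. Nuclear genes of the respiratory chain had 0 of 41 higher and 3 lower with a median of -0.20, which is 0.07 and 0.46 under the same scalings. The GC correction gave 0 higher and 12 lower of these 41, and 0 higher and 5 lower of the 13 mitochondrial mRNAs. Cytosolic ribosomal protein genes had 1 of 78 higher and 0 lower. Subunits of the VHL ligase, which dTAGV-1 recruits, and FKBP12, whose mutant form is the tag, had no call among 7 tested genes.

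Cell cycle and metabolic lists are read against the 8.24% of all tested genes that were higher. DNA replication genes had 4 of 39 higher and 1 lower, or 2 higher with the 8 libraries alone, with GINS3, a subunit of the replicative helicase, at 1.68 ± 0.18. G2 and mitosis genes had 5 of 30 higher and 0 lower, or 1 higher with the 8 libraries alone, with PLK1, a mitotic kinase, at 1.11 ± 0.18. Cholesterol synthesis genes had 2 of 25 higher and 0 lower, or 1 higher with the 8 libraries alone, with INSIG1, which holds SREBP in the endoplasmic reticulum, at 1.16 ± 0.18. Splicing kinases had 1 of 10 higher and 1 lower, which is CLK1, given above.

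Genes outside these lists also stood among the largest differences with a mean of at least 5 CPM. KCNJ11, a subunit of the ATP-sensitive potassium channel, had 7.62 and 13.6 CPM in treated WT, 14.5 and 11.9 CPM in untreated WT, 1.65 and 1.62 CPM in treated degron and 21.8 and 15.3 CPM in untreated degron libraries (3.19 ± 0.46, edgeR adjusted p = 7.5e-05), and its WT groups overlapped. PDGFA, a growth factor, had 6.79 and 9.36 CPM in treated WT, 5.09 and 5.76 CPM in untreated WT, 3.00 and 2.60 CPM in treated degron and 13.5 and 13.1 CPM in untreated degron libraries (2.83 ± 0.32, edgeR adjusted p = 3.9e-06). Untreated WT had less of it than untreated degron. KAT5, the catalytic subunit of the TIP60 acetyltransferase, had 16.1 and 19.5 CPM in treated WT, 24.2 and 25.6 CPM in untreated WT, 2.69 and 2.77 CPM in treated degron and 26.3 and 22.1 CPM in untreated degron libraries (2.66 ± 0.30, edgeR adjusted p = 4.8e-06), with the treated degron libraries far below the other 6. SGF29, a histone reader of the SAGA complex, was higher by 2.63 ± 0.27.

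Among the lower genes the largest differences fell on genes of low level. TPH1, tryptophan hydroxylase, which starts serotonin synthesis, had 6.88 and 4.82 CPM in treated WT, 3.96 and 3.75 CPM in untreated WT, 14.1 and 11.8 CPM in treated degron and 1.26 and 1.84 CPM in untreated degron libraries (-2.49 ± 0.40, edgeR adjusted p = 0.00024). The treated degron libraries were highest and the untreated degron libraries lowest. PTAFR, the receptor for platelet-activating factor, had 5.88 and 5.30 CPM in treated WT, 1.95 and 1.87 CPM in untreated WT, 16.8 and 15.8 CPM in treated degron and 1.66 and 1.04 CPM in untreated degron libraries (-2.02 ± 0.26, edgeR adjusted p = 2e-05). It rose in both lines. GNAT2, the cone transducin subunit, and GPR179, a retinal receptor, were at -2.21 ± 0.40 and -2.003 ± 0.40, and neither call held with the 8 libraries alone (edgeR adjusted p = 0.057 and 0.052). MRPL20-DT, ACAD9-DT, RBM26-AS1 and GOT1-DT were at -1.77, -1.58, -1.55 and -1.54, and reads of such transcripts cannot be told from those of their partner genes without strand.

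Another set changed the same way in both lines. ELAPOR1, a transmembrane protein of the endosome and lysosome system, had 7.71 and 6.95 CPM in treated WT, 0.440 and 0.486 CPM in untreated WT, 18.6 and 16.8 CPM in treated degron and 0.465 and 0.881 CPM in untreated degron libraries. It rose by 3.96 in WT and by 4.73 in the degron line. The difference of -0.78 ± 0.39 was not called (edgeR adjusted p = 0.38), while treated WT against treated degron libraries stood at -1.27. UNC79, a subunit of the sodium leak channel complex, rose by 2.94 in WT and by 2.82 in the degron line, with a difference of 0.12 ± 0.34. LRATD2 fell in both, with 114 and 95.4 CPM in treated WT, 239 and 246 CPM in untreated WT, 20.8 and 20.9 CPM in treated degron and 242 and 265 CPM in untreated degron libraries (2.39 ± 0.16, edgeR adjusted p = 2.3e-09).

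Besides HSPA6, SLC7A11 and HMOX1, a few genes moved in WT in the direction of the difference. NAV2, a neuron navigator protein, had 44.99 and 46.1 CPM in treated WT, 27.3 and 26.7 CPM in untreated WT, 26.5 and 27.5 CPM in treated degron and 33.9 and 33.2 CPM in untreated degron libraries (1.07 ± 0.18, edgeR adjusted p = 0.00036). WSCD1 was higher by 1.87 ± 0.30. POU3F3, a neural transcription factor, had a difference of 0.84 ± 0.20 and CCN1, a matricellular protein, 0.80 ± 0.23, calls that ended with the 8 libraries alone (edgeR adjusted p = 0.078 and 0.12). ALDH1A2, which makes retinoic acid, fell in WT, with 128 and 119 CPM in treated WT, 153 and 159 CPM in untreated WT, 166 and 151 CPM in treated degron and 120 and 125 CPM in untreated degron libraries (-0.71 ± 0.13, edgeR adjusted p = 0.00069, and 0.061 with the 8 libraries alone). With the authors' factors its difference was -0.10 (edgeR adjusted p = 0.80).

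The lines with a mutant CTD received doxycycline too, so their own treated against untreated changes can be set beside those of the WT line. Their names give the residue of the CTD repeat that is replaced. In the lines Y1F, S2A, T4V, S5A and S7A, in that order, HSPA6 rose by 3.61, 3.25, 3.23, 2.34 and 8.60. It rose by 6.56 in WT, and its value in the degron line, -0.27, was not called. SLC7A11 had log2 changes of -0.46, -0.45, 0.42, -0.996 and 1.13 in the mutant lines in the same order, of which S5A and S7A were called, 2.16 in WT and -0.13 in the degron line. MYC changed by -3.72, -0.83, -1.60, -4.19 and -1.58 in the mutant lines, by -0.47 in WT and by -4.49 in the degron line. HSPA1B had log2 changes of -1.99, -0.34, -0.44, -1.96 and -0.12 in the mutant lines, 0.24 in WT and -2.88 in the degron line, and those of S7A and WT were not called. ATF4 had log2 changes of -1.76, -0.89, -1.11, -2.41 and -0.90 in the mutant lines and -2.66 in the degron line, all called, and -0.27 in WT, not called. The order of the lines was not tested, and each line has 2 libraries a group.

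**Figure D5:**
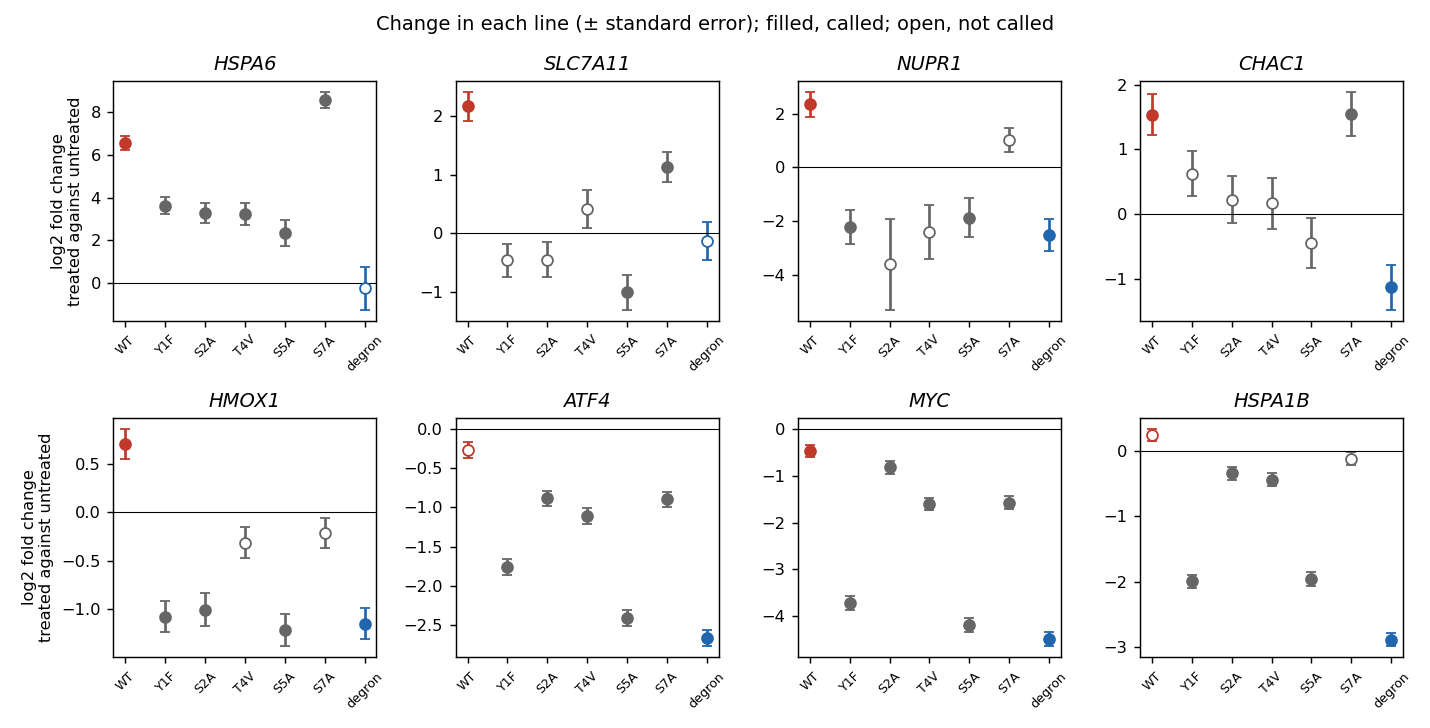
Log2 fold change of treated against untreated libraries, with the standard error, in the WT line, the 5 mutant CTD lines and the degron line, for 8 genes; filled points were called and open points were not. HSPA6 is above 0 in every line given doxycycline, between 2.34 in S5A and 8.60 in S7A, and at -0.27 in the degron line, which had none.

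The authors' own scaling gave the same direction for these genes. In the authors' deposited table MYC had a log2 fold change of -0.68 in the WT line with an adjusted p of 0.9989, and of -5.35 in the degron line. HSPA6 had a log2 fold change of 6.398 in the WT line in the authors' deposited table (adjusted p = 7.756e-24). Its value in the degron line there was -1.11 at a mean signal of only 1.715. That value had an unadjusted p of 0.5931 by the authors' DESeq2 test and no adjusted p, so it shows no fall. Library totals divided by the authors' factors, in units of 1e6, were 11.33 and 16.82 in treated WT, which lay far apart and overlapped the 15.47 and 17.92 of untreated WT libraries. They were 9.064 and 8.381 in treated degron and 14.77 and 16.14 in untreated degron libraries, which did not overlap. How those factors were made is not given in the sources used here.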

How the data were processed

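Polyadenylated RNA was sequenced as 150 bp pairs from cells to which 10% S2 fly cells had been added, per the labels' protocols. The authors deposited whole-number counts per gene for all 30 libraries, 2 in each of 15 groups. Per the submitters' processing notes the tools were Trim Galore 0.6.2, STAR 2.7.3a, featureCounts 2.0.1 and DESeq2 1.24.0, with the builds hg38 and dm6. The tables list 61578 human genes and 0 fly genes. TPM columns that the authors also deposited sum to between 998366 and 999347 per library and were not tested. The authors' own tables hold, for each line, a mean signal per gene (their base mean), a log2 fold change of treated over untreated cells and p-values, all deposited by the authors. The factors behind the base means were solved from those deposited means and counts.

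Counts were tested with edgeR 4.0.16 and limma 3.58.1 in R 4.3.3, using TMM factors, the low-count filter of edgeR with a minimum count of 10 and a total of 15, and a model of group means fitted to the 30 libraries together, with 15 residual degrees of freedom (common dispersion 0.01216). Of the genes, 19982 were tested and 41596 were not. P-values were adjusted after Benjamini and Hochberg for each comparison separately, and a gene is called where its adjusted p is under 0.05. CPM values are scaled by TMM library sizes. Totals ran from 10866089 to 17912802 counts per library over the series, which limits precision at genes with few counts. The scripts were tested on simulated data.

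The genes named are those of the RNA polymerase II check, up to 15 each way with the largest called difference and a mean of at least 5 CPM, up to 8 each way that changed alike in both lines or moved in WT in the direction of the difference, and up to 4 per list; list members beyond these were chosen after their values were seen. The members, lists and rules were chosen with earlier results of these data known. Some genes that the rule names are not reported here. Gene types and coordinates came from GENCODE 29 on hg38, matched for 56659 genes, and promoter sequences from RefSeq on GRCh38.p14. Alternatives were DESeq2 1.42.0 as test or as size factors, other filters, scaling to mitochondrial mRNAs or by the authors' factors, the 8 libraries alone, leaving out Mock or 1 library, a replicate block, and, added after the data were seen, a GC correction and the 8 libraries with the authors' factors.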

Additional observations from a re-analysis of the deposited data

Results flagged for a closer look

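The test of the difference between the 2 lines' changes passed for 2403 genes. Among them 13 genes were also called within each line in opposite directions. Among these 13, the WT change was called with the 8 libraries alone only for NAV2 (edgeR adjusted p = 0.045). The degron change of NAV2 was not called in that fit (edgeR adjusted p = 0.095), so no gene of the 13 kept both calls there. With the authors' factors the WT change was called for NUPR1 and CHAC1, and with mitochondrial matching for these, NAV2 and the 3 genes that fell in WT.

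The 10 that rose in WT and fell in degron cells were NUPR1 (difference of changes 4.88), CHAC1 (2.67), ARC (2.54), ADM2 (2.44), PHLDA3 (2.4), WSCD1 (1.87), HMOX1 (1.85), NAV2 (1.07), TANC2 (0.9) and RPRD2 (0.56). CHAC1, NUPR1 and HMOX1 stand on the stress lists described above. ARC, ADM2, TANC2 and RPRD2 were named after their values were seen. ARC, an activity-regulated gene of neurons, had 2.98 and 3.10 CPM in treated WT, 1.51 and 1.39 CPM in untreated WT, 0.735 and 0.636 CPM in treated degron and 1.92 and 1.92 CPM in untreated degron libraries. ADM2, a peptide hormone of the adrenomedullin family, had 3.89 and 6.05 CPM in treated WT, 2.52 and 2.15 CPM in untreated WT, 1.04 and 2.20 CPM in treated degron and 4.65 and 3.605 CPM in untreated degron libraries. TANC2, a scaffold protein of synapses, had 49.3 and 49.2 CPM in treated WT, 36.3 and 35.6 CPM in untreated WT, 31.7 and 30.4 CPM in treated degron and 40.8 and 43.6 CPM in untreated degron libraries. RPRD2, which holds a CTD-interacting domain, had 108 and 105 CPM in treated WT, 85.7 and 83.3 CPM in untreated WT, 68.8 and 64.0 CPM in treated degron and 76.5 and 79.4 CPM in untreated degron libraries, and its difference was not called with the 8 libraries alone (edgeR adjusted p = 0.13).

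The 3 that fell in WT and rose in degron cells were WDR77 (-0.57), ALDH1A2 (-0.71) and NUTM2D (-1.16). WDR77, a subunit of the PRMT5 methylosome, had 104 and 111 CPM in treated WT, 135 and 132 CPM in untreated WT, 100 and 103 CPM in treated degron and 88.7 and 83.1 CPM in untreated degron libraries. NUTM2D, also named after its values were seen, had 2.32 and 3.17 CPM in treated WT, 4.97 and 3.89 CPM in untreated WT, 3.67 and 3.93 CPM in treated degron and 2.66 and 2.80 CPM in untreated degron libraries. It belongs to a family of near-identical copies, so its counts are uncertain. For these 3 genes the difference was not called with the 8 libraries alone, with edgeR adjusted p of 0.11, 0.061 and 0.091. Their degron change was -0.61 for WDR77, -0.48 for ALDH1A2 and -0.38 for NUTM2D with the authors' factors, and -0.24, -0.11 and -0.0026 in the same order with mitochondrial matching, so the opposite directions were kept under neither scaling. With the authors' factors the difference was 0.066 for WDR77, -0.10 for ALDH1A2 and -0.52 for NUTM2D (edgeR adjusted p = 0.87, 0.80 and 0.30).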

How the results depend on the processing

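The direction of each of the 2403 called differences stayed the same, or the gene was not tested, in all alternatives but those with the authors' factors, and 0 were called in the opposite direction in any. The number of calls moved most with the libraries fitted, the GC correction and the scaling. For the difference it was 573 with the 8 libraries alone, 5922 with the authors' factors, 6015 with the GC correction and 5925 with that correction and the replicate block. In the degron line 8881 calls became 13403 with the authors' factors and 5669 with a mean of at least 5 CPM. In the WT line 985 became 128 with the 8 libraries alone, 182 with these and the authors' factors, 588 with the authors' factors, 651 with a mean of at least 5 CPM, 2300 with mitochondrial scaling, and 3879 and 3761 with the GC correction, the second with the block. Treated WT against treated degron had 4283 with the 8 libraries alone. Untreated WT against untreated degron had 272 with the 8 libraries alone, 5318 with the GC correction and 5224 with that and the block. The authors' factors were solved line by line with the first untreated library of each line at 1, so they carry no scale between lines. Applied all the same, they gave 11210 calls between treated groups (10704 higher, 506 lower) and 651 between untreated groups (268 and 383), or 8353 and 161 with the 8 libraries alone.

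Leaving out 1 of the 8 libraries gave 1445 to 2793 calls for the difference, 6727 to 9396 in the degron line, 282 to 1038 in the WT line, 4995 to 6688 between treated groups and 611 to 2298 between untreated groups. The WT line had 305 calls without replicate 1 and 282 without replicate 2 of untreated WT, and 433 without replicate 2 of treated WT. The untreated groups had 611 without replicate 1 and 1320 without replicate 2 of untreated degron, and 716 and 629 without replicates 1 and 2 of untreated WT. The lone library left in a group was assumed to vary like the other groups.

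With the replicate block 2229 genes were called for the difference, 8716 in the degron line, 933 in the WT line, 6608 between treated and 1914 between untreated groups. Same-numbered libraries deviated together between the treated groups (correlation 0.88) and between the untreated groups (0.388). They deviated in opposite directions in the 4 pairs of a treated with an untreated group (-0.747, -0.779, -0.487 and -0.488). What libraries of the same number share is not given by the labels and was not tested.

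Of 169 named genes, 6 turned sign with the authors' factors in the fit of all libraries that have them and in that of the 8 libraries: WDR77 (0.066 in both), HEXIM1 (0.014), CTR9 (0.081), ATP5F1B (0.240), SDHB (0.248) and ATP5F1A (0.260 and 0.261). These factors raise the median of all genes to 0.64, and the cause was not tested. With the 8 libraries alone 54 of them lost their call and 111 kept their side of the threshold, and with 1 library left out 11 to 24 lost it.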
